A study of Mus musculus with 6 samples.

Results

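The 10 genes followed here in chromatin accessibility maps of oviductal muscle make, move or break down prostaglandins. They are Pla2g4a, Ptgs1, Ptgs2, Ptges, Ptgis, Akr1b3, Slco2a1, Abcc4, Ptgr1 and Hpgd. They were chosen by name for these roles, and the regions analysed are those of the merged WT and Pbrm1 cKO lists of reproducible peaks that overlapped one of the gene bodies or 50 kb on either side of it. There were 113 such regions of 66679 in all. Of these, 11 lay within 1 kb of a transcription start of the gene itself (promoter regions), 13 lay within 1 kb of a start of another gene, and 89 were distal. A distal region is near these genes, which does not show that it acts on them, and in 35 of the 89 the nearest start of any gene was that of the member.

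ATAC-seq measures where the Tn5 transposase can insert adapters, mainly in open chromatin. The 6 libraries came from primary oviductal muscle cells of mice aged 8 to 12 weeks on day 2 of pregnancy, 3 labelled WT and 3 labelled Pbrm1 cKO, each made from 50000 cells plated for some hours. Per the study's methods the control females carried Pbrm1 fl/fl without Cre. By the same methods, Pbrm1 cKO females carried Pbrm1 fl/fl with Cre driven from the progesterone receptor gene. The deletion therefore depends on past or present use of that promoter. Pbrm1 encodes a subunit of a SWI/SNF complex, which moves nucleosomes. The labels do not say how many animals gave each library, so the p-values measure the spread between libraries.

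Prostaglandins are lipid signals made on demand from arachidonic acid. A phospholipase releases the fatty acid from membranes, a cyclooxygenase turns it into an unstable intermediate, and terminal synthases convert that into the separate prostaglandins. Carriers move the products across membranes, and a pair of enzymes inactivates them. In the oviduct and other smooth muscle, these signals set contraction and relaxation.

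Each library has a peak list in which an entry carries the −log10 p of its summit. A region took the best value of the entries over it, and all 66679 regions were ranked within each library, with rank 1 the strongest. The rank score, log2(number of regions / rank), rises by 1 when the rank number falls by a factor of 2. Genotypes were compared on this score with limma over all regions, with Benjamini-Hochberg adjustment. A rank gives the place of a region among the others of its library and not an amount of accessibility.

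The lists held 298563 to 300000 entries, and a median of 8 to 14 sequencing tags lay over the listed summits. WT library 3 stood apart, with the lowest median of 8 tags, the lowest median fold enrichment of 3.61 and 241237 distinct intervals against 201228 to 209436 in the others. The smooth muscle markers Acta2, Myh11, Cnn1, Tagln, Des, Smtn and Lmod1 all had promoter regions, 7 of 7. Of 7 oviduct epithelium markers only Foxj1 had one, and of 4 immune markers only Csf1r, while Epcam, Cdh1 and Ptprc had none. Endothelial markers had one in 4 of 4 and fibroblast markers in 3 of 4. The median rank score of the best region of each gene in these lists ranged from 1.25 to 1.71 over the 6 libraries for smooth muscle, from 0.66 to 1.36 for endothelium and from 0.70 to 1.37 for fibroblasts. For Csf1r it ranged from 0.42 to 1.17, and for Foxj1, the single epithelial marker with a region, from 3.20 to 4.62, above the smooth muscle median in every library. None of the marker regions passed an adjusted p of 0.05 in limma, and 2, of Pdgfra and Dcn, had an unadjusted p under 0.05.

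The sequences shown next are the bases before the start of 3 members whose promoter regions are compared below, Ptgs2, Ptgr1 and Hpgd, and the middle of 3 distal regions with the smallest p-value in their windows. They are given as the regions described in most detail below, of which none passed the adjusted threshold. RefSeq's promoter table (GRCm38.p6) held 8 of the 10 members, with no entry used for Ptgis and Akr1b3. From it, 250 bases before the start are given 5′ to 3′ on the strand of the gene. The Ptgs2 promoter is chr1:150099781-150100030 on the plus strand, the Ptgr1 promoter is chr4:58987079-58987328 on the minus strand and the Hpgd promoter is chr8:56294302-56294551 on the plus strand. The distal windows are 300 bases around the summit of the pooled list, on the plus strand of GRCm38.p6, and none of the 3 touches an annotated exon. They are chr1:150089062-150089361 upstream of Ptgs2, chr8:56304149-56304448 in an intron of Hpgd and chr9:103013382-103013681 in an intron of Slco2a1. Capitals mark matches to the motifs named after the sequences.
Ptgs2 promoter: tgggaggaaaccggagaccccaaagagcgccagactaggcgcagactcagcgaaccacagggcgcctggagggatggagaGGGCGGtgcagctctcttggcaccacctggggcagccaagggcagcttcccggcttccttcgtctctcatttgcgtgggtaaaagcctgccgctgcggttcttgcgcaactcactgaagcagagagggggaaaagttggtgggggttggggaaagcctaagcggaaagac
Ptgr1 promoter: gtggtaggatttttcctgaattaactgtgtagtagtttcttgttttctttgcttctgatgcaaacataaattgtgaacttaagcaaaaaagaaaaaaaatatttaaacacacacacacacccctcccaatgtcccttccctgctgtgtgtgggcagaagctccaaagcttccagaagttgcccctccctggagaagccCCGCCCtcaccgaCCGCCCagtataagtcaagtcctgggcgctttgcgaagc
Hpgd promoter: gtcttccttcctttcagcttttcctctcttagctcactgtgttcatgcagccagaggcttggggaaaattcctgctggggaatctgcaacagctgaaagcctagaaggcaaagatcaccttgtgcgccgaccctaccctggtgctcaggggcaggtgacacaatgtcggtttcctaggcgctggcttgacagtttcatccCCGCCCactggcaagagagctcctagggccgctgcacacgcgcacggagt
Ptgs2 upstream region: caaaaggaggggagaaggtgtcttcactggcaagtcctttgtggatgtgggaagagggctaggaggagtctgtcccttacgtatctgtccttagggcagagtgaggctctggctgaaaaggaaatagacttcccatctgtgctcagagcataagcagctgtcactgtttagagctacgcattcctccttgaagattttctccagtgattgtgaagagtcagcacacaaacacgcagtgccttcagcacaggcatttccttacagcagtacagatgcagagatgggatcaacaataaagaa
Hpgd intronic region: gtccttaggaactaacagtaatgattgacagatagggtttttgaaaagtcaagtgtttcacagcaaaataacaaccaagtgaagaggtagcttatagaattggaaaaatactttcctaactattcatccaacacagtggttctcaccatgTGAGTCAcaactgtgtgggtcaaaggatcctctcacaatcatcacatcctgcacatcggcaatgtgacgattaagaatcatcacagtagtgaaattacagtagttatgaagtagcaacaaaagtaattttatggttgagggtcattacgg
Slco2a1 intronic region: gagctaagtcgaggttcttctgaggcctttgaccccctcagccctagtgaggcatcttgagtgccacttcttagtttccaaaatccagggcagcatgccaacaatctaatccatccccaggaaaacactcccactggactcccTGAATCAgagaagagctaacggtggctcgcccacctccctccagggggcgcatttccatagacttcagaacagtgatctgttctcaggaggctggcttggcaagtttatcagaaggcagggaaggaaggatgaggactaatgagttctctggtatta

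The motifs searched on both strands were the AP-1 motif TGANTCA, the cAMP response element TGACGTCA, the GATA motif AGATAAG, the SRF CArG box and the NF-kB motif. In the bases before the start, none of these matched in the 8 members, against 6.75% of 32851 RefSeq promoters for AP-1, 1.55% for the cAMP response element, 2.74% for GATA, 1.47% for the CArG box and 7.25% for NF-kB. The GC box GGGCGG and the TATA element TATAAA were added after the data were seen. The GC box stood in 6 of the 8 members, in all but Ptgs1 and Pla2g4a, against 32.7% of all promoters, and TATAAA stood in Slco2a1 alone, against 12.4%. For Ptges the bases searched precede the RefSeq start, 26.6 kb from the start where the promoter region compared below lies. In summit windows of 300 bases the AP-1 motif matched in 43 of the 89 distal regions (48.3%), close to the 46.9% of all 45124 distal regions. The capitals in the Hpgd and Slco2a1 introns mark it, and the window upstream of Ptgs2 held no match to any of the 5 motifs. In 11 distal regions every Pbrm1 cKO library ranked above every WT library, and AP-1 matched in 2, the introns shown. It matched in 3 of the 9 where every Pbrm1 cKO library ranked below, and in 38 of the 69 with overlap. These matches describe letters in the windows and not bound sites.

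The comparison asked whether regions of the pathway change their place when Pbrm1 is deleted. At the gene's own start, 9 of the 11 promoter regions were lower in Pbrm1 cKO, with a median difference in rank score of −0.42, against −0.04 over all 21555 promoter regions of the series. Ptgs1 supplied 3 of the 11, and −0.42 is the value of the Slco2a1 region, called in the WT list only. The median score of the 11 in each library was 1.95, 1.53 and 2.05 in WT. In Pbrm1 cKO it was 1.73, 1.85 and 2.29, with overlap. The distal regions were split evenly, 43 lower and 46 higher, with a median difference of 0.01 against 0.02 over all 45124 distal regions. None of the 113 regions passed an adjusted p of 0.05 in limma, where 0.0675% of all regions did, and the smallest adjusted p was 0.0833, upstream of Ptgs2. That region entered the merged set through the WT list alone. The direction and the p-value of a region called in 1 list are partly set by that choice, which holds for 16 members called in WT only and 20 called in Pbrm1 cKO only. At an unadjusted p under 0.05, 13 regions were lower, against 8.37% of all regions, and 7 were higher, against 7.51%. Those 13 are 11.5% of the members and those 7 are 6.19%.

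The promoter regions held 6 of these 13 (in Ptgs1, Akr1b3, Slco2a1, Ptgr1 and Hpgd), which is 54.5% of the 11 against 7.92% of all promoter regions. The genes were chosen with earlier results of these data known, so these shares are a description. Ptgs1 supplied more than 1 of the 6, and the regions of Slco2a1 and of 1 Ptgs1 start were called in the WT list only. The p-values of those regions are partly set by that choice. Of the markers, the 11 smooth muscle promoter regions had a median difference of −0.18, with 9 of 11 lower, against 54.0% of all promoter regions. Of these 11, 2 were called in the WT list only (18.2%, against 9.61%). The 7 fibroblast promoter regions, of Pdgfra, Col1a1 and Dcn, had a median of 0.29, with 7 of 7 higher. Without overlap, 3 of the 7 were higher (42.9%, against 6.63% of all promoter regions). In the Pbrm1 cKO list only, 3 of the 7 were called (42.9%, against 9.06%), which partly sets their direction. Lum had no region, the 4 endothelial regions had a median of −0.17, and the part of these cell types in the difference at the promoters was not tested. Fewer cells of a type and less open chromatin per cell cannot be told apart in such bulk samples. In 5 promoter regions every Pbrm1 cKO library ranked below every WT library, against 10.3% of all promoter regions. In 1, that of Pla2g4a, every Pbrm1 cKO library ranked above, against 6.63%. Among the distal regions 9 were lower without overlap, against a background of 11.1%, and 11 were higher, against 12.5%, shares of 10.1% and 12.4%, near the background.

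**Figure D1:**
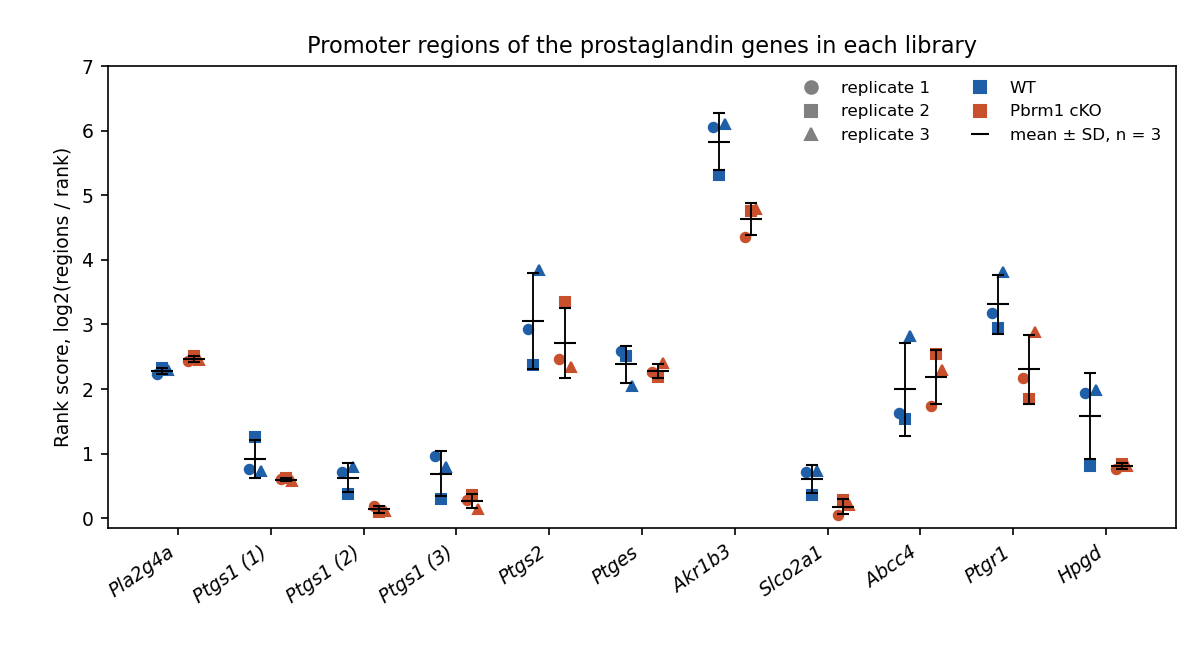
Rank score (y axis, log2 of the number of regions over the rank, no unit) of the 11 promoter regions of 9 genes in each of the 6 libraries, WT in blue and Pbrm1 cKO in orange, with the mean and SD of 3 libraries. The 3 WT points of Akr1b3 and Ptgr1 lie above all Pbrm1 cKO points, and those of Pla2g4a lie slightly below.

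Over the 6 libraries, the promoter of Akr1b3 had by far the best places among the members, with a rank score of 5.23 ± 0.73 (mean ± SD, n = 6). It was followed by Ptgs2 (2.88 ± 0.61), Ptgr1 (2.81 ± 0.71), Pla2g4a (2.38 ± 0.11), Ptges (2.33 ± 0.20) and Abcc4 (2.09 ± 0.54), whose neighbours in this order did not differ beyond the larger SD. Hpgd (1.20 ± 0.60) and the first start of Ptgs1 (0.76 ± 0.25) came next, and Slco2a1 (0.39 ± 0.28) was last. The steps from Akr1b3 to Ptgs2, from Abcc4 to Hpgd and from Ptgs1 to Slco2a1 exceeded the larger SD. This order pools the genotypes. In WT alone, Abcc4 (2.00 ± 0.72) and Hpgd (1.58 ± 0.67, n = 3 each) did not differ beyond the larger SD, and Ptgr1 (3.31 ± 0.45) stood above Ptgs2 (3.05 ± 0.74), while in Pbrm1 cKO Ptgr1 (2.30 ± 0.53) stood below Pla2g4a (2.47 ± 0.05). Ptgis had no merged region within 1 kb of a start, although each library had a relaxed entry there, with a −log10 p of 6.40 to 17.6.

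Pla2g4a encodes the cytosolic phospholipase A2 that frees arachidonic acid. Its promoter region ranked 14158.5, 13358.5 and 13563.5 in the WT libraries and 12362.5, 11637.5 and 12205.5 in the Pbrm1 cKO libraries, where average ranks are shared by ties. The libraries of each genotype lay close together, and the groups did not overlap. The difference was 0.18 ± 0.32 (SE), adjusted p = 0.837 in limma, which draws the spread of a region towards that of others at a like level.

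The gene spans 131673 bp and its window held 17 distal regions, 16 of them in introns or beyond its end and 1 upstream of the start. The smallest p among them was in an intron at chr1:149855626-149855916, far inside the gene, which was called in the Pbrm1 cKO list only. It ranked 64057, 38111 and 61767 in WT and 29864, 35185.5 and 31766 in Pbrm1 cKO, so the groups did not overlap, with WT library 2 the closest to the other genotype. Its summit carried 12, 24 and 6 tags in WT and 35, 26 and 28 tags in Pbrm1 cKO, and the score difference was 0.73 ± 0.26 (adjusted p = 0.187). In all, 12 of the 18 regions of this window were higher in Pbrm1 cKO and 6 were lower, with a median difference of 0.09. Over the series, 33366 of 66679 regions were higher. Of the 18, 6 were called in the Pbrm1 cKO list only and 2 in WT only, which partly sets their direction.

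Ptgs1 and Ptgs2 encode the cyclooxygenases, the former made by many cells at rest and the latter typically induced. Their windows held 20 regions, of which 15 were lower in Pbrm1 cKO, with a median difference of −0.26. Over the series, 50.0% of regions were lower. Of the 20, 6 were called in the WT list only (30.0%, against 13.4% of all regions) and 2 in Pbrm1 cKO only, which partly sets their direction. Ptgs1 has 3 promoter regions, at its first start and at 2 internal starts, and all 3 had a negative difference. The first, at chr2:36229974-36230914, ranked 39249, 27969.5 and 40299 in WT and 43648, 43372.5 and 44918 in Pbrm1 cKO. The groups were separate by a narrow margin, with a difference of −0.31 ± 0.26 (adjusted p = 0.594) that was −0.14 without WT library 2.

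The second Ptgs1 start, at chr2:36235938-36236304, showed the smallest p of all 11 promoter regions. It ranked 40434, 51642 and 38466 in WT and 58366.5, 61995 and 61698.5 in Pbrm1 cKO, with no overlap, and was called in the WT list only. The score differed by −0.49 ± 0.17 (adjusted p = 0.164). At the third, chr2:36243093-36243777, WT library 2 ranked among the Pbrm1 cKO libraries, and the difference was −0.43 ± 0.20 (adjusted p = 0.313). Over the second start lay 28, 19 and 15 tags in WT and 17, 14 and 14 in Pbrm1 cKO, which overlap.

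The promoter region of Ptgs2, chr1:150099413-150100379, also holds the start of the antisense gene Ptgs2os, and ATAC-seq does not tell the 2 starts apart. It ranked 8740, 12887 and 4642 in WT and 12037, 6582.5 and 13206 in Pbrm1 cKO. The groups overlapped and the difference was −0.33 ± 0.42 (adjusted p = 0.753), which became 0.06 without WT library 3. The summit carried 72, 54 and 53 tags in WT and 68, 76 and 57 tags in Pbrm1 cKO.

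The region with the smallest p of all 113 lay 10.8 kb upstream of the Ptgs2 start, at chr1:150089013-150089422 in an intron of Ptgs2os, and its sequence is shown above. It ranked 35198, 34830 and 32304.5 in WT and 64717, 65332.5 and 59121 in Pbrm1 cKO, so that a place near the middle of the lists contrasted with one near their end in every library. Over its summit lay 21, 19 and 13 tags in WT and 9, 7 and 11 tags in Pbrm1 cKO, and it was called in the WT list only. The score differed by −0.89 ± 0.19 (limma adjusted p = 0.0833), and by −0.93 to −0.85 with any 1 library left out. With normal scores of the ranks, an alternative scale that gives low places more room, its adjusted p was 0.0198 in limma. Both p-values are for a region that was listed only because it was high in WT, so they are given as a description.

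Downstream of Ptgs2, a region at chr1:150115196-150115781 was also lower without overlap. It ranked 24393, 20210.5 and 21182 in WT and 27789.5, 30349 and 34891.5 in Pbrm1 cKO, a difference of −0.50 ± 0.31 (adjusted p = 0.453). Of the 45 regions past the threshold in the series, the nearest to the Ptgs2 upstream region was 1865 kb away and higher in Pbrm1 cKO (difference 2.72, adjusted p = 0.0064). Both lie in a longer stretch of chromosome 1 that also holds Pla2g4a. In that stretch 6 of 1375 regions passed, 3 lower and 3 higher, against 39 of 65304 outside it. Without overlap, 14.8% of its regions were lower and 13.3% higher, against 10.8% and 10.5% outside. The bounds of this stretch were not fixed in the plan, so these counts and shares are a description. What lies behind them was not tested.

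**Figure D2:**
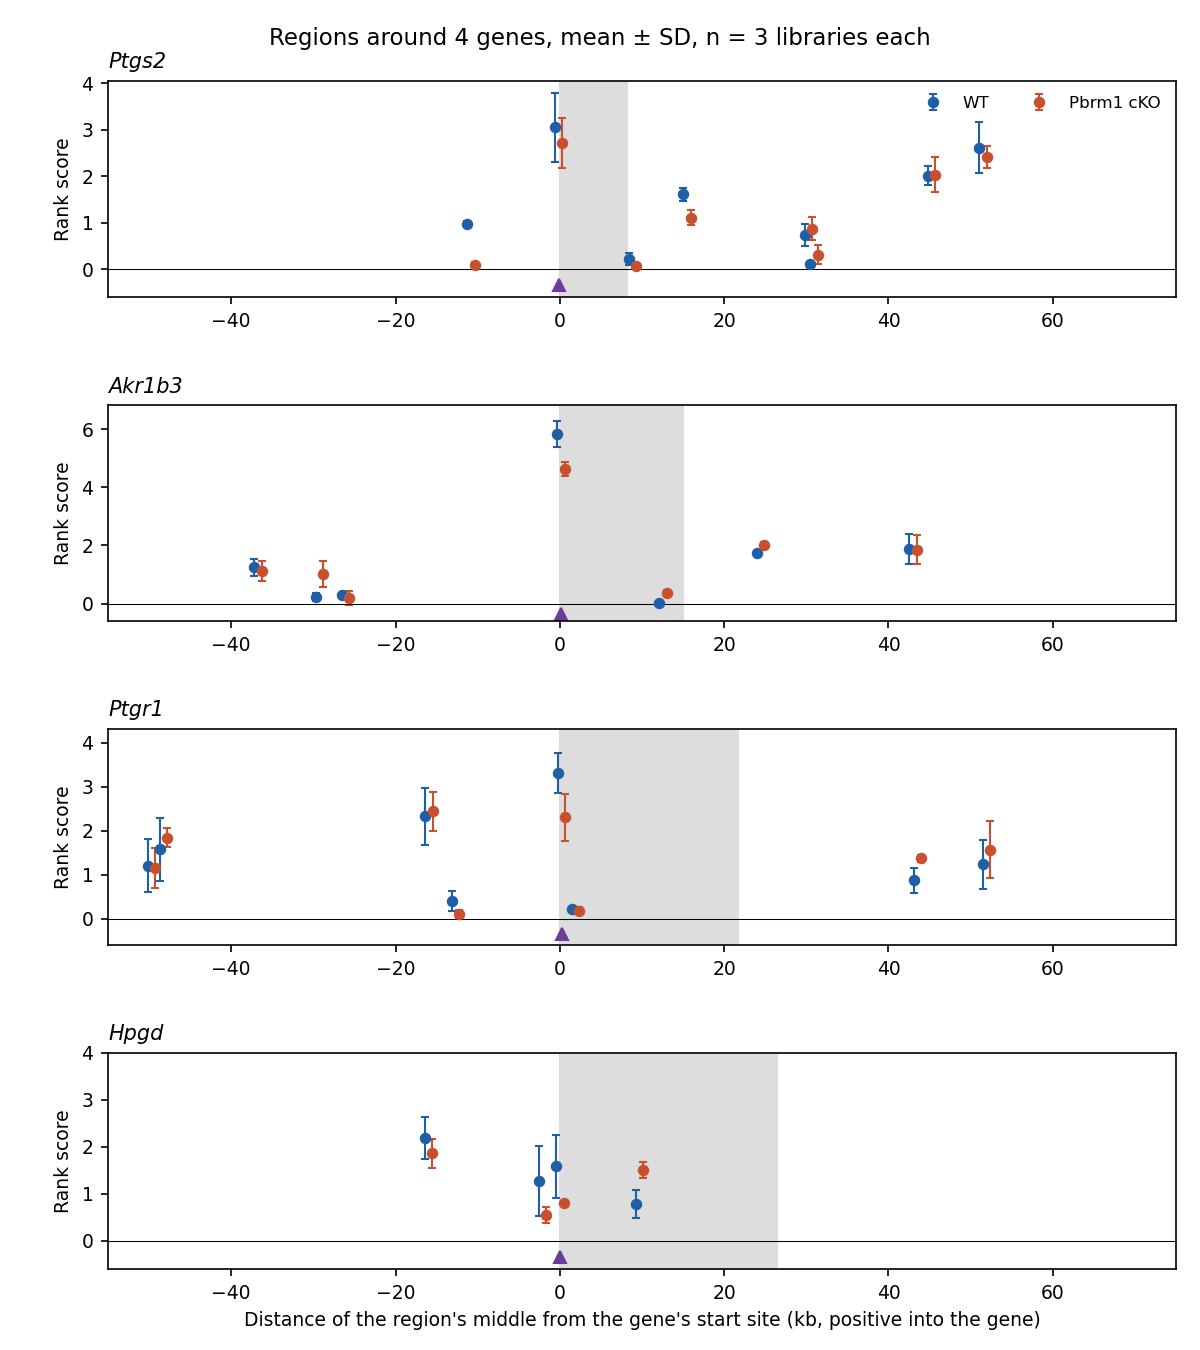
Mean rank score ± SD (y axis, no unit) of 3 WT (blue) and 3 Pbrm1 cKO (orange) libraries for each region around Ptgs2, Akr1b3, Ptgr1 and Hpgd, against distance from the start in kb (x axis, positive into the gene, gene body shaded, points of the 2 genotypes set slightly apart, triangle under the own promoter region). WT lies above Pbrm1 cKO at the region 10.8 kb upstream of Ptgs2 and at the starts of Akr1b3 and Ptgr1, and below it in the intron of Hpgd.

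Ptges, Ptgis and Akr1b3 encode terminal synthases, of prostaglandin E2, of prostacyclin and, as a side activity of aldose reductase, of prostaglandin F2α. Their 35 regions had a median difference of 0.01, with 16 lower and 19 higher. The Ptges promoter region, chr2:30928939-30930043, lies at the outermost annotated start, 26.6 kb upstream of the start that RefSeq gives. It ranked 11076, 11742 and 16067.5 in WT and 13926, 14592 and 12663 in Pbrm1 cKO, with overlap and a difference of −0.10 ± 0.33 (adjusted p = 0.919) that came to 0.0034 without WT library 1. No merged region lay within 1 kb of the RefSeq start, where the best −log10 p of any relaxed entry was 11.6, 5.19 and 4.47 in WT and 7.22, 5.73 and 6.04 in Pbrm1 cKO.

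Among the 13 distal regions of the Ptges window, the smallest p was at chr2:30942577-30943006, nearer to the start of Tor1b than to that of Ptges. It was called in both lists and ranked 20269, 13854 and 19733 in WT and 12162, 13963 and 6981 in Pbrm1 cKO. WT library 2 overlapped with Pbrm1 cKO library 2, and the difference was 0.74 ± 0.36 (adjusted p = 0.325). It was 0.44 without Pbrm1 cKO library 3 and 2.14 when regions were ranked by fold enrichment.

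All 12 regions of the Ptgis window were called in both lists, and none had groups that did not overlap. The strongest, at chr2:167263374-167264034 and 23.1 kb upstream of the start, ranked 4661, 4167 and 5306.5 in WT and 3731, 6889.5 and 3742 in Pbrm1 cKO. Its difference of 0.03 ± 0.41 (adjusted p = 0.982) changed sign with any of 3 libraries left out. Within the gene, a region 8.3 kb past the start ranked 19120, 14509 and 17375 in WT and 15733, 8738.5 and 10381 in Pbrm1 cKO, with overlap and a difference of 0.58 ± 0.34.

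Akr1b3 had the best-ranked promoter region of the members, at chr6:34316858-34317793. It ranked 1002, 1669.5 and 969 in WT and 3278, 2464 and 2404 in Pbrm1 cKO, without overlap, a score difference of −1.19 ± 0.52 (adjusted p = 0.274). The tags over its summit did not follow the ranks, with 121, 95 and 72 in WT and 104, 104 and 107 in Pbrm1 cKO. The fold enrichment over local background was 20.6, 19.4 and 19.0 in WT and 20.2, 19.4 and 20.0 in Pbrm1 cKO, which overlap, so the difference is in place among the other regions. Ranked by fold enrichment in place of −log10 p, the difference was −1.46 (adjusted p = 0.386).

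Inside Akr1b3, an exonic region 12.5 kb past the start, chr6:34304621-34305237, went the other way. No WT library had an entry over it, so it shared the last places there, at 66325, 66344.5 and 65147, while it ranked 54129, 50567 and 49180 in Pbrm1 cKO. The Pbrm1 cKO summits carried 15, 14 and 15 tags, and the region was called in the Pbrm1 cKO list only. The difference was 0.36 ± 0.11 (limma adjusted p = 0.143), and with normal scores the adjusted p was 0.0129. This region and the one upstream of Ptgs2 were the members past 0.05 on that scale, 1 higher and 1 lower, where 0.993% of all regions were higher and 1.33% lower. Each was listed only through the genotype in which it ranked better, so its passing 0.05 is partly fixed by how regions were chosen.

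Upstream of Akr1b3 and nearest to the start of its paralog Akr1b8, the region chr6:34346631-34346852 was higher without overlap. It ranked 58216.5, 61925 and 51846.5 in WT and 24630, 32576.5 and 45082 in Pbrm1 cKO, with 13, 10 and 8 tags against 32, 21 and 18. The difference was 0.79 ± 0.25 (adjusted p = 0.143), and it was called in the Pbrm1 cKO list only. Reads from paralogs such as these can be assigned ambiguously, and how multiply mapped reads were treated was not examined.

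Slco2a1 encodes the prostaglandin transporter, which takes prostaglandins into cells, and Abcc4 an efflux pump that also carries them. The Slco2a1 promoter region, chr9:103007681-103008936, lies at the start that RefSeq gives, 19.8 kb past the outermost annotated start, where no library had an entry. It ranked 40370, 52081.5 and 40094.5 in WT and 64348, 54759.5 and 57815 in Pbrm1 cKO, without overlap, and was called in the WT list only. The difference was −0.42 ± 0.17 (adjusted p = 0.233), with 27, 18 and 14 tags in WT and 13, 18 and 16 in Pbrm1 cKO, which overlap.

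In an intron of Slco2a1, the region chr9:103013288-103013692 with the AP-1 match shown above was higher. It ranked 61676.5, 62731 and 54347 in WT and 45082, 45467 and 34070 in Pbrm1 cKO, with 13, 9 and 8 tags against 20, 18 and 23. The ranks and the tags, which come from the same entries, were separate between the genotypes. The difference was 0.53 ± 0.18 (adjusted p = 0.166). The promoter region and this intronic one had differences of opposite sign.

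The Abcc4 promoter region, chr14:118705822-118706703, ranked 21519, 23014 and 9391 in WT and 20062, 11480 and 13628 in Pbrm1 cKO. WT library 3 had the best place of the 6, the groups overlapped, and the difference was 0.19 ± 0.39 (adjusted p = 0.863), with a negative sign without WT library 2 (−0.04) and when ranked by fold enrichment (−0.09). Of 12 distal regions in this window of 14 regions, 4 were lower and 1 was higher without overlap, against 11.1% and 12.5% of all distal regions, numbers too small to read as a trait of this gene. The smallest p was in an intron, chr14:118551700-118552389, which ranked 43408.5, 53013 and 47515 in WT and 64717, 60489.5 and 64249.5 in Pbrm1 cKO, was called in the WT list only and differed by −0.40 ± 0.14 (adjusted p = 0.164). The pair of regions nearest upstream of the start differed between themselves. The stronger, 3.8 kb upstream, ranked 4534 to 7814 in all 6 libraries with overlap. The weaker, 7.4 kb upstream, ranked 29744.5, 27088 and 25761.5 in WT and 39973, 40979 and 55868.5 in Pbrm1 cKO, a difference of −0.71 ± 0.28 (adjusted p = 0.231).

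Ptgr1 and Hpgd encode the enzymes that inactivate prostaglandins, a reductase and the dehydrogenase 15-PGDH that takes the first step. The Ptgr1 promoter region, chr4:58986581-58987235, ranked 7381.5, 8686 and 4734 in WT and 14737, 18501 and 9030 in Pbrm1 cKO. Every Pbrm1 cKO library ranked below every WT library, although WT library 2 and Pbrm1 cKO library 3 were close, and the difference was −1.01 ± 0.38 (adjusted p = 0.216), and −1.30 to −0.75 with any 1 library left out. The tags overlapped, with 67, 53 and 46 in WT and 52, 39 and 59 in Pbrm1 cKO. Its window held only 3 distal regions, with 2 called in the WT list only, 12.7 kb upstream and in the first part of the gene.

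The Hpgd promoter region, chr8:56294297-56294894, ranked 17311, 37860 and 16763 in WT and 39270.5, 37074 and 37933 in Pbrm1 cKO. WT libraries 1 and 3 stood well above the rest, while WT library 2 lay among the Pbrm1 cKO libraries. The difference was −0.78 ± 0.35 (adjusted p = 0.290). A region 2.1 kb upstream ranked 19924, 21079 and 50150.5 in WT and 42372.5, 42409 and 52505 in Pbrm1 cKO, again with 1 WT library apart from the other two, and differed by −0.72 ± 0.34.

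The intron of Hpgd with the AP-1 match shown above, chr8:56303990-56304529 and 9.7 kb past the start, was higher in Pbrm1 cKO. It ranked 48267, 37417.5 and 32304.5 in WT and 26939.5, 21187 and 22571 in Pbrm1 cKO, and carried 16, 18 and 13 tags against 29, 30 and 29. Neither the ranks nor the tags, which come from the same entries, overlapped, and the difference was 0.73 ± 0.31 (adjusted p = 0.264). It was the only one of the 4 Hpgd regions with a positive difference.

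**Figure D3:**
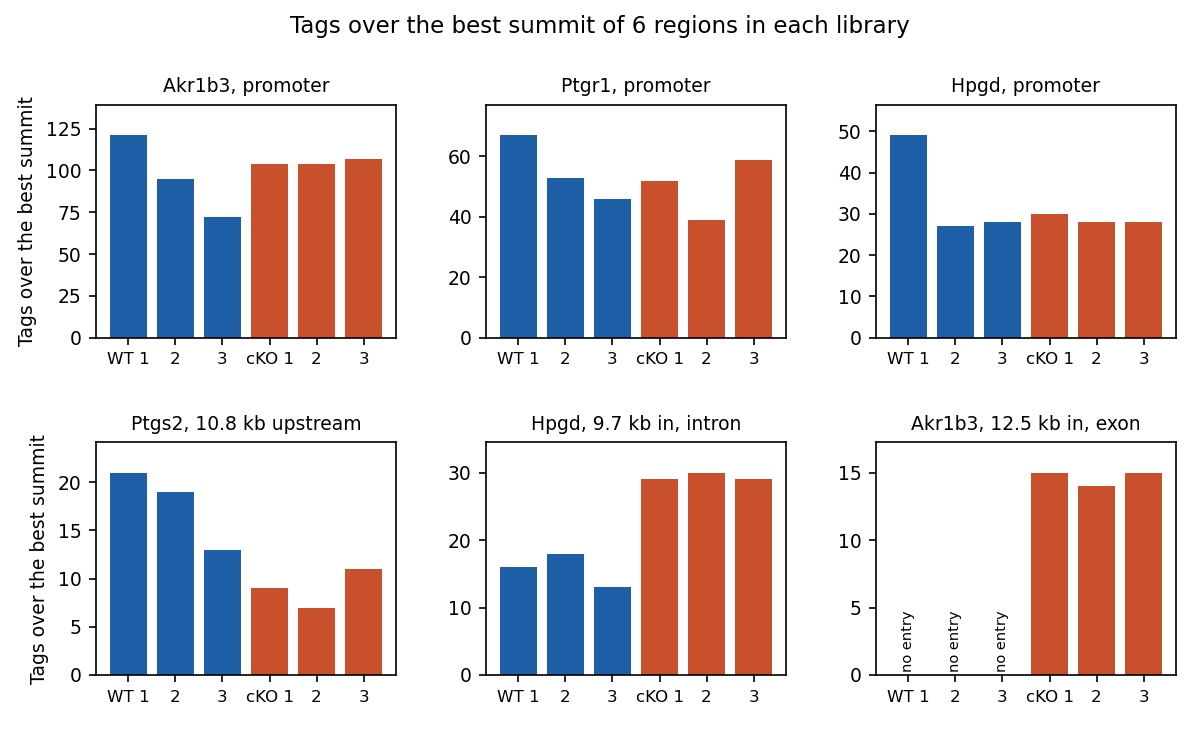
Tags over the best summit (y axis, tags recovered from fold enrichment and p, bars from 0) in the 6 libraries, WT in blue and Pbrm1 cKO in orange, at 3 promoter and 3 other regions. Tags overlap between the genotypes at the promoters of Akr1b3, Ptgr1 and Hpgd, and do not overlap upstream of Ptgs2 (13 to 21 against 7 to 11) or in the Hpgd intron (13 to 18 against 29 to 30), and no WT library has an entry in the Akr1b3 exon.

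By role, the 18 regions of Pla2g4a had a median difference of 0.09, the 20 of the cyclooxygenases −0.26, the 35 of the synthases 0.01 and the 40 of transport and clearance −0.03. Each role includes regions called in 1 list only, whose direction is partly set by that choice. Of the 113 regions, 77 were called in both reproducible lists, 16 in the WT list only, or 14.2% against 13.4% of all regions, and 20 in the Pbrm1 cKO list only, or 17.7% against 17.4%. Both shares are near the background. The 2 promoter regions called in 1 list, at Ptgs1 and Slco2a1, were both in the WT list only, against 9.61% of all promoter regions called in WT only and 9.06% in Pbrm1 cKO only. All 20 called in the Pbrm1 cKO list only were distal, 22.5% of the distal members against 21.4% of all distal regions, near the background. Each list pools a genotype, so these counts carry no replicate error.

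**Figure D4:**
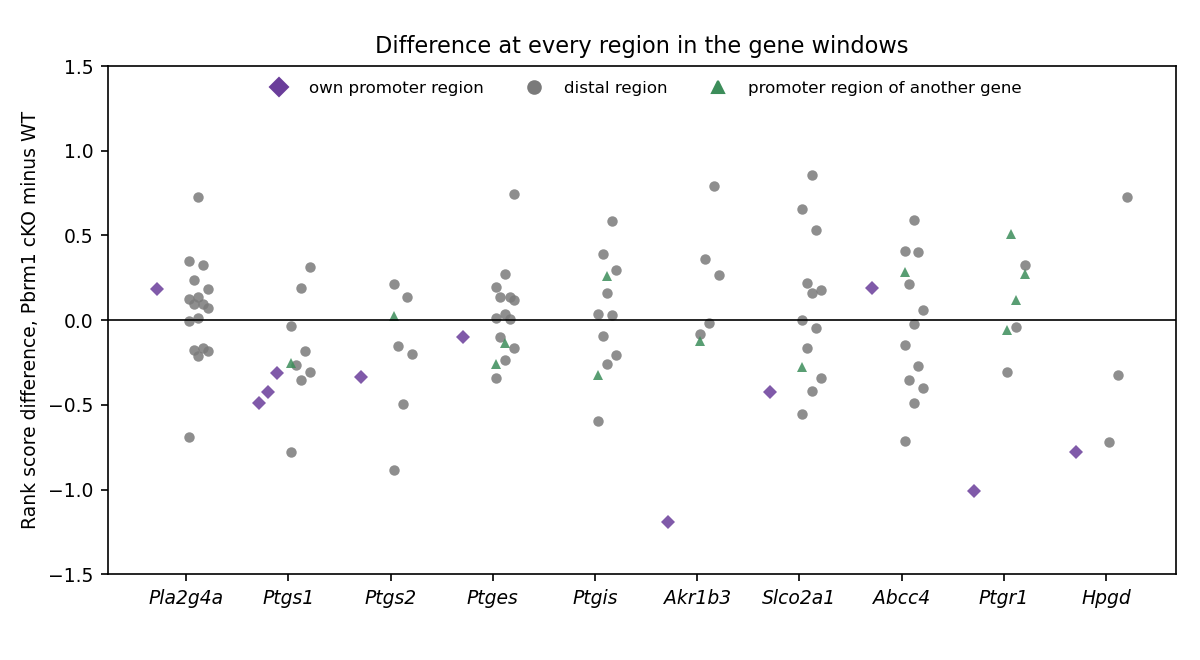
Difference in rank score, Pbrm1 cKO minus WT (y axis, no unit), at each of the 113 regions, by gene in order of role, with own promoter regions as diamonds, distal regions as circles and promoter regions of other genes as triangles. Of 11 diamonds 9 lie below 0, down to −1.19 at Akr1b3, while the 89 circles spread on both sides of 0.

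The relaxed lists of the single libraries held 297, 301 and 321 distinct intervals in the 10 windows in WT and 308, 313 and 318 in Pbrm1 cKO. The means were 306 ± 12.9 and 313 ± 5.00 (SD, n = 3 each), with overlap. As a share of all intervals of a library, this was 0.147%, 0.144% and 0.133% in WT and 0.153%, 0.153% and 0.155% in Pbrm1 cKO. The shares were separate between genotypes, with WT library 3, which had the most intervals in all, the lowest.

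Other genes of prostaglandin metabolism were read at their promoters from a list of 30. Of these, 29 were in the annotation and 19 had a promoter region, 26 regions in all. None passed an adjusted p of 0.05 in limma, where 10 of all 21555 promoter regions did. At an unadjusted p under 0.05, 0 were lower and 1 was higher (3.85%), against 7.92% and 4.45% of all promoter regions. Of the 26 differences 15 were negative (57.7%, against 54.0%), with a median of −0.15 against −0.04. The shares higher and negative are near the background. In the Pbrm1 cKO list only, 4 of the 26 were called, and in the WT list only 1. The 1 higher was Pla2g5, a secreted phospholipase, at 0.08 ± 0.04 in WT and 0.58 ± 0.43 in Pbrm1 cKO (rank score, mean ± SD, n = 3 each, limma adjusted p = 0.205). In WT it ranked 63287.5, 64357 and 60995, near the end of the lists. Ptges2, a membrane-associated prostaglandin E synthase, had 2 promoter regions, with differences of −0.77 ± 0.52 and −0.49 ± 0.37 (SE), the second without overlap.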

How the data were processed

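ATAC-seq was measured in 6 libraries, grouped by the genotype in the sample labels. Per the study's methods and the submitters' processing notes, the authors used the ENCODE ATAC-seq pipeline 1.9.0 on GRCm38.p5, with cutadapt, Bowtie2 and MACS2. The authors deposited 1 relaxed list per library, with a p cutoff of 0.01 and at most 300000 entries, and 1 conservative list per genotype at an irreproducible discovery rate (IDR) of 0.05. Each deposited entry holds a fold enrichment over local background (a ratio), a −log10 p and, in relaxed lists, a −log10 q. The deposited score column is a rescaled rank value and was used for nothing. The authors compared read counts with DESeq2. The files held no counts, so ranks took their place.

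Lists of both genotypes were merged at 1 bp overlap, and genes and starts came from GENCODE M21. Every entry lay inside the chromosome lengths of GRCm38.p6. Regions with no entry shared the last places of a library at their average rank, where the plan had given them the last rank. limma 3.58.1 (lmFit, and eBayes with a trend) in R 4.3.3 was fitted to the rank scores of all 66679 regions, two-sided, Benjamini-Hochberg adjusted, threshold 0.05. An exact permutation test of 3 against 3 cannot go below p = 0.1, so none was run. Tested on simulated data, the limma procedure recovered only a part of the changed regions, and more of them with normal scores, so a count of 0 past the threshold does not show that no region changed. Tags over a summit were solved from its fold and p, and came out whole within 0.001 in 99.9% or more of 3000 entries per library. They come from the entry that also sets the rank, so they are not a second measurement, and they were not scaled for the depth of a library. In 221 entries the summit column held a position, which was converted. Total reads are unknown, so no entry means below the threshold of that list and not closed.

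The members and lists were chosen with earlier results of these data known. For each member, every promoter region, the distal region with the best mean score and that with the smallest p were eligible for naming. Other regions were named after their values were seen. Alternatives covered the scale, the ranking column, filters, windows, the replicate block and left-out libraries.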

Additional observations from a re-analysis of the deposited data

How the results depend on the processing

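With normal scores of the ranks, 1 member region was higher and 1 lower past the threshold, against 0 and 0. The scale itself gives low places more room. The cause of the other moves was not tested. The median difference at distal regions was 0.01, ranged from −0.0232 to 0.0539 with each library left out, and was highest without WT library 3. At promoter regions it ranged from −0.62 to −0.36 with each library left out. With a promoter distance of 3 kb it was −0.26 there, with 12 of 19 regions lower. In the stronger 50% of each IDR list, 10 regions were called in WT only and 9 in Pbrm1 cKO only, against 16 and 20. With entries at a q of 0.05 or less, the windows held 27.0 more intervals in Pbrm1 cKO than in WT in the mean. The counts at that q were 281, 279 and 236 in WT and 308, 291 and 278 in Pbrm1 cKO, with overlap and WT library 3 the lowest. The mean difference was 6.67 with all entries, and 2 to 14 with each library left out.

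Same-numbered libraries did not deviate together (correlations of −0.00289, −0.0549 and 0.00906). The labels do not say whether the numbers pair them, and these correlations cannot show how the libraries were prepared. With the replicate block, 0 member regions passed, with a median of −0.42 at promoters and a smallest adjusted p of 0.0642, and 131 regions passed in the series against 45. Over the series, the number past the threshold was 1552 with normal scores, 4 by fold enrichment, 20 with entries in all libraries, 64 among the upper 50% of regions by mean score and 2 to 20 with each library left out. The other 61 values of the comparisons stayed within the replicate spread, or within 1.5 times for counts. The listed summits of a library held 8 to 14 tags in the median, which limits the precision of a rank.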
